A study of Mus musculus with 7 samples.

Results

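The keratin-associated protein genes, which carry the symbol Krtap, were taken as all rows of the gene table whose symbol begins with these letters. They numbered 51 of 22552 symbols. RNA had been sequenced from cells purified by flow sorting (FACS) from mouse skin at postnatal day 50, in 7 libraries labelled with the strain CD1/C3H. The ear and back (dorsal) libraries came from epidermal and from dermal cells of each: wild-type ear (WT, genotype Wt/Wt), wild-type dorsal skin (WT, Wt/Wt) and ear carrying 1 copy of the Koa allele (Wt/Koa). The 7th library was titled WT tail dermis (Wt/Wt) and had no cell type label. Each group had 1 library, so no value here has a replicate and no test between groups could be made. The labels used here do not say how many animals went into a library, or which sorting gates were used. Koa is a dominant mouse mutation, an inversion of distal chromosome 15 known for hairy ears. The study set the Koa ear beside the wild-type ear and the hairier back, within the outer layer of skin (epidermis) and within the layer under it (dermis).

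Keratin-associated proteins are the matrix proteins of the hair shaft. They are made in the hair cortex and cuticle as the shaft hardens, and they bind the hair keratin filaments to each other through disulphide bonds and other contacts. The family is grouped by composition into high glycine-tyrosine, high sulphur and ultra-high sulphur proteins, and its genes are short, mostly without introns, and lie in clusters. They are transcribed mainly in the few cells that are building a hair or a related structure. In libraries made from many cells, fewer cells of a type and less RNA per cell cannot be told apart.

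By family name, 14 of the 51 symbols belong to high glycine-tyrosine families, 18 to high sulphur families and 17 to ultra-high sulphur families, and 2 were not classed. In GRCm38 they lie in 4 clusters. The cluster on chromosome 16 (chr16:88610709-89571183) holds 21 of them, and that on chromosome 11 (chr11:99550132-99993994) holds another 21, between the hair keratin genes Krt40 and Krt33a. Chromosome 7 (chr7:142174532-142304503) holds 5, all of the ultra-high sulphur Krtap5 family, and chromosome 10 (chr10:77720586-77837251) holds 3. The last symbol, Krtap16-1, names a gene on chromosome 11 and is also an older name of Krtap19-2 on chromosome 16. With the length of the second, its values gave whole numbers of fragments in every library, from 0 to 3, and with that of the first they did not (4.20 in WT ear epidermis). It was therefore counted with chromosome 16, which then holds 22.

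Promoters are shown for the highest members of each class that have one in the RefSeq table (GRCm38.p6), since the results turn on these genes. They are Krtap8-1 of the high glycine-tyrosine class, Krtap11-1 and Krtap3-2 of the high sulphur class and Krtap17-1 of the ultra-high sulphur class. Each sequence is the 250 bases before the start of the gene, 5′ to 3′ on the strand of the gene, which is the minus strand in all 4. Krtap8-1 is at chr16:89487953-89488202, Krtap11-1 at chr16:89571184-89571433, Krtap17-1 at chr11:99993995-99994244 and Krtap3-2 at chr11:99556854-99557103. Capitals mark TATAAA, the core of a TATA box, and 7-letter words from the binding consensus of Hoxc13, a homeodomain factor of the hair shaft (the word TTAATNA, the word TTAATNG, the word TTTATNA or the word TTTATNG), on either strand.
Krtap8-1: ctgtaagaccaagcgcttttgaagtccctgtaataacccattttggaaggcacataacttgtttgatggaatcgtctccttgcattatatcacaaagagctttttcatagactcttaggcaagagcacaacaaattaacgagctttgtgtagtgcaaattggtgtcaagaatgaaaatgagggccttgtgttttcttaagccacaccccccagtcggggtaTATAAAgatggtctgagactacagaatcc
Krtap11-1: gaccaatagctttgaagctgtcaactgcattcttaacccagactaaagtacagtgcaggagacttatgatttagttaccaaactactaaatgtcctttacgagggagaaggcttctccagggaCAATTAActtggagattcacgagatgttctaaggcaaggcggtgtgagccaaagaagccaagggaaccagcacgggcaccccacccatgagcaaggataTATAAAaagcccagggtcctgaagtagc
Krtap17-1: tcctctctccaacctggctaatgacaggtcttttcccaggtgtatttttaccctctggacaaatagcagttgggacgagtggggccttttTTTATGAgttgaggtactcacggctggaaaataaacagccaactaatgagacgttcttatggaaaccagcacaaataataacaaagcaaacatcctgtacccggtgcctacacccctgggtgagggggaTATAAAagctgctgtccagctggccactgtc
Krtap3-2: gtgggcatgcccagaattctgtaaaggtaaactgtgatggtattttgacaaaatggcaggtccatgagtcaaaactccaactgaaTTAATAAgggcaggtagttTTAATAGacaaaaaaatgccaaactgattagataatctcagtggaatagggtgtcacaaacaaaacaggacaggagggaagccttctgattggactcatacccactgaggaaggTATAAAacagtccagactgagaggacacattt
TATAAA begins 29, 28, 31 and 32 bases before the start of Krtap8-1, Krtap11-1, Krtap17-1 and Krtap3-2. A Hoxc13 word occurs 1 time in the windows of Krtap11-1 and Krtap17-1 and 2 times in that of Krtap3-2, and these letters are not in the window of Krtap8-1. Of the 45 members with a promoter in the table, 29 (64.4%) hold TATAAA on the gene strand with its first base 16 to 50 bases before the start, against 2.40% of 32851 promoters of the same length. On either strand and anywhere in the window, 36 (80%) hold TATAAA, against 12.4% of all. A Hoxc13 word was found in 31 (68.9%), against 29.4% of all. These words are AT-rich and can overlap TATAAA, neighbouring members are related in sequence, and a match is a description of letters, not of a bound site.

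Expression is given as FPKM (fragments per kilobase of transcript, scaled to the fragments sequenced), a level that can be compared between genes of different length. Because low FPKM values lie on steps of 1 fragment, the depth of the 6 ear and dorsal libraries could be recovered. It ranged from 31.6 M (mega fragments) in dorsal epidermis to 40.3 M in WT ear epidermis. Values of the members could thus be turned into fragments, and ratios carry exact 95% Poisson intervals, which cover counting error only and not variation between animals or preparations. The tail column is rounded to 2 decimals and gives 0 for 222 symbols that reach 10 FPKM in each of the remaining 6 libraries. Tail values are therefore given for themselves and no fragments were derived from them. The epidermal libraries were rich in basal keratinocyte markers (Krt5 at 5801 to 7883 FPKM) and low in Pdgfra, a receptor of fibroblasts (0.210 to 0.268 FPKM). Other fibroblast markers were seen in them, with Thy1 at 37.5 to 69.2, Dcn at 12.4 to 20.2 and Col6a1 at 8.53 to 15.7 FPKM. The 7 listed fibroblast markers summed to 67.0 to 119 FPKM in the epidermal libraries and 4999 to 10135 FPKM in the ear and dorsal dermal libraries. The ear and dorsal dermal libraries held Pdgfra at 55.3 to 99.3 FPKM and also keratinocyte RNA, with Krt5 at 267 FPKM in WT ear, 787 FPKM in Koa ear and 2377 FPKM in dorsal dermis.

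Few of the family were expressed above a trace. Of the 51 members, 18 were listed at 0 in all 7 libraries, 32 had at least 1 fragment in the 6 ear and dorsal libraries, and 5 reached 1 FPKM in at least 1 of them. Among the 46 that did not, the highest count was 17 fragments, for Krtap13-1 in Koa ear epidermis. The 5 were Krtap7-1, Krtap8-1 and Krtap11-1 on chromosome 16, and Krtap17-1 and Krtap3-2 on chromosome 11.

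Krtap7-1 (chr16:89507703-89508323), a high glycine-tyrosine protein of the hair cortex, stood at 0.237 FPKM in WT ear epidermis, 12.7 in Koa ear epidermis and 0.227 in WT dorsal epidermis. In the dermal libraries it stood at 0 FPKM in WT ear, 2.83 in Koa ear and 0.0741 in WT dorsal. The Koa ear was the high sample in both layers, and the wild-type ear and back lay close together in epidermis.

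Krtap8-1 (chr16:89487374-89487952), of the same class, stood at 0.726, 11.9 and 0.674 FPKM in WT ear, Koa ear and WT dorsal epidermis. Its dermal levels in the same order were 0, 4.12 and 0.494 FPKM. Krtap11-1 (chr16:89570176-89571183), a high sulphur protein, stood at 0.277, 6.53 and 0.628 FPKM in epidermis and 0, 2.13 and 0.269 FPKM in dermis. Both had the Koa ear as the highest library of each layer and wild-type ear dermis at 0.

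Krtap17-1 (chr11:99993232-99993994), of the ultra-high sulphur class, was ordered otherwise, with 0.755 FPKM in WT ear, 1.93 in Koa ear and 2.95 in WT dorsal epidermis. In dermis it stood at 0.0493, 0.202 and 0.665 FPKM. Krtap3-2 (chr11:99555823-99556853), a high sulphur protein, stood at 0.0299, 0.136 and 1.91 FPKM in epidermis and at 0.0996, 0 and 0.971 FPKM in dermis. For both chromosome 11 genes the back, not the Koa ear, was the highest library of each layer.

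**Figure D1:**
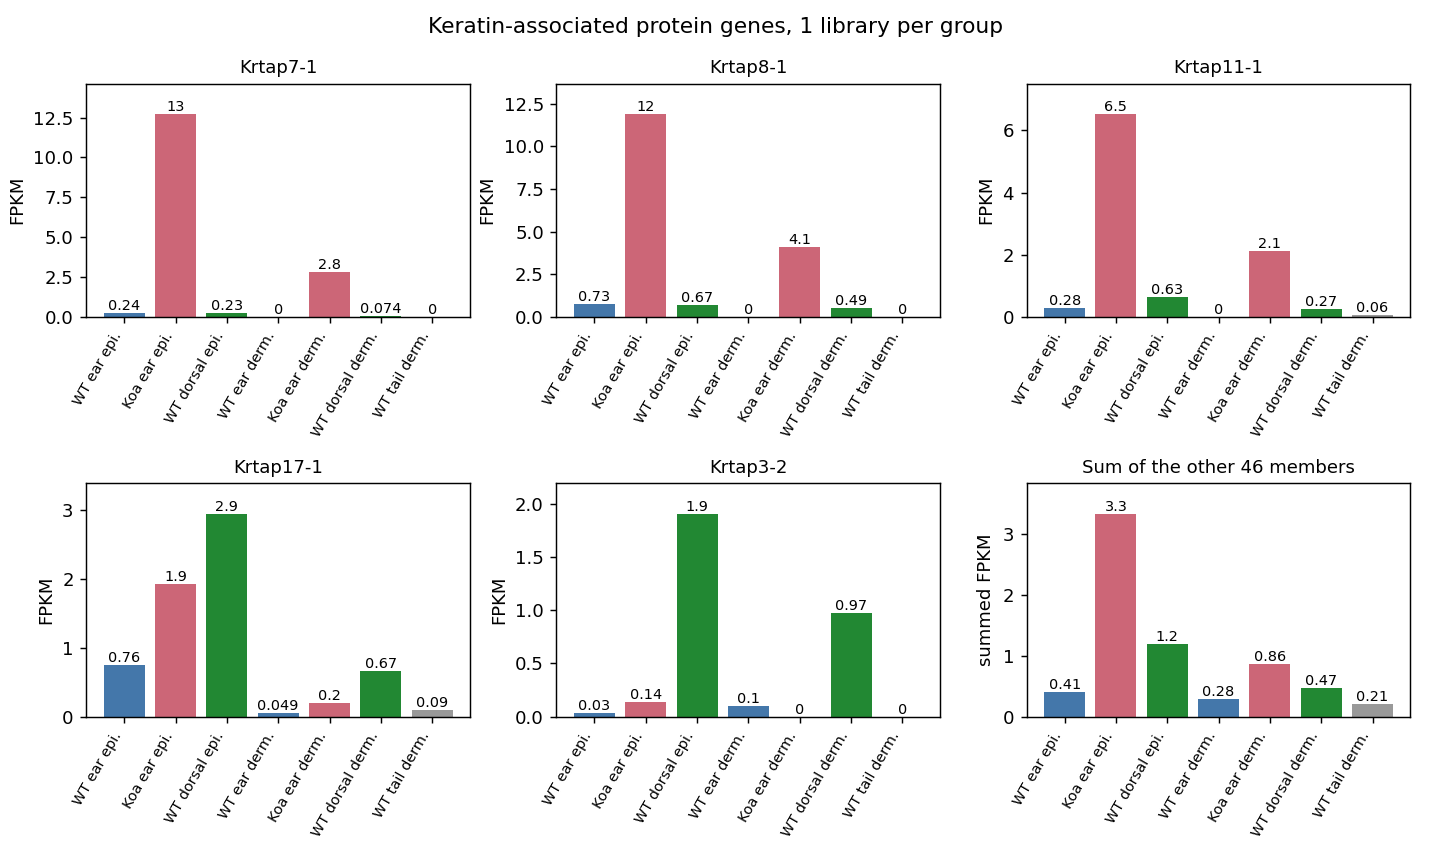
Bars give the level in FPKM (linear axes that start at 0 and differ between panels) of each of the 5 members that reach 1 FPKM, and the summed FPKM of the other 46, in the 7 libraries (epi., epidermis; derm., dermis; 1 library per group and no error bars). Krtap7-1, Krtap8-1 and Krtap11-1 are highest in Koa ear epidermis (12.7, 11.9 and 6.53 FPKM), and Krtap17-1 and Krtap3-2 are highest in WT dorsal epidermis (2.95 and 1.91 FPKM).

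Over the 6 ear and dorsal libraries, log2(FPKM + 1) of the 3 chromosome 16 genes correlated with each other at Pearson's r of 0.99 for each pair, and Krtap17-1 with Krtap3-2 at 0.64. Between the clusters r lay from 0.27 to 0.37 for Krtap17-1 and from -0.38 to -0.26 for Krtap3-2. These are descriptions over 6 points that share depth and tissue layer, and the first set rests on the Koa ear libraries. Of these 5 genes Krtap3-2 alone shares any run of 50 bases with another gene, 28.9% of its windows, with its neighbour Krtap3-3, so its fragments could be split between them. Over the family 37 of 51 members share such runs with another gene, and their low values are uncertain for that reason.

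Between Koa and wild-type ear epidermis the family was higher in the Koa ear, and most of its fragments there (570 of 620) came from the chromosome 16 genes. The 51 members summed to 36.5 FPKM against 2.44 FPKM, and to 620 against 53 fragments, a ratio per depth of 13.3 (95% interval 10.1 to 18.0). Krtap7-1 rested on 188 against 4 fragments, a ratio of 53.6 (20.6 to 199). Krtap8-1 had 158 against 11 fragments, a ratio of 16.4 (8.91 to 33.5), and Krtap11-1 had 186 against 9, a ratio of 23.6 (12.1 to 52.3). Krtap17-1 had 38 against 17 fragments, a ratio of 2.55 (1.40 to 4.82), well under the others.

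Differences were also taken as log2(FPKM + 1), which understates the change of low genes, over genes that reached 1 FPKM in either library. A gene was counted as higher or lower when it differed by at least 1. By this rule 3 of 4 members kept were higher in the Koa ear and 0 lower, where 2.15% of all kept genes were higher and 0.854% lower. The differences were 3.47 for Krtap7-1, 2.90 for Krtap8-1 and 2.56 for Krtap11-1, and 0.74 for Krtap17-1, which was not counted. All 4 were under 1 FPKM in the WT ear and were kept through the Koa ear alone, so none of them could have been lower, and the count is a description. The same holds wherever a gene reaches 1 FPKM in only 1 of the libraries compared, which is so for the members in all comparisons among the ears and back of 1 layer below, except for Krtap17-1 between Koa ear and dorsal epidermis. Of all 51 members, 18 were higher in Koa at any size, 6 were lower and 27 were at 0 in both. The 6 lower were Krtap14, with 1 against 4 fragments, Krtap12-1 and Krtap5-2, with 0 against 2, and Krtap16-1, Krtap1-4 and Krtap5-4, with 0 against 1.

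Of the 19 chromosome 16 members under 1 FPKM, 9 gave fragments in Koa ear epidermis, and the others were at 0 there. Krtap13-1, a high sulphur gene, had 17 fragments in Koa ear epidermis, 9 in Koa ear dermis, 1 in WT dorsal epidermis and 0 in the other 3 (0.879, 0.463 and 0.0578 FPKM where it was seen). Krtap22-2 (0.801 FPKM, 5 fragments) and Krtap16-4 (0.546 FPKM, 2 fragments), both of high glycine-tyrosine families, were seen in Koa ear epidermis and in no other library. Krtap15, a high sulphur gene, had 6 fragments in Koa ear epidermis (0.268 FPKM) and 1 in WT dorsal epidermis. Together the 19 members had 38 fragments in Koa, 17 of them of Krtap13-1, and 5 in WT ear epidermis, a ratio of 8.67 (3.41 to 28.2). Single counts of this size say little on a gene, and a gene with 0 fragments could be present at up to 3 fragments, 0.0849 per M in this library. In the other cluster, Krtap3-3 had 5 fragments in WT dorsal epidermis, 2 in Koa ear epidermis and 2 in WT dorsal dermis, and Krtap5-1 of chromosome 7 reached 0.194 FPKM in WT dorsal epidermis.

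In ear dermis the same 3 genes were counted as higher in Koa. They were the 3 members kept, through their Koa level alone, beside 1.71% of all kept genes higher and 1.07% lower. Krtap7-1 had 42 fragments, Krtap8-1 had 55 and Krtap11-1 had 61, and all 3 had 0 in WT ear dermis. Set against the 3 fragments that a count of 0 allows, they were 14.3-fold, 18.8-fold and 20.8-fold higher, leaving out counting error in the Koa library. With that error included, the lower limits of the exact intervals of their ratios were 11.1, 14.7 and 16.4. Krtap17-1 had 4 against 1 fragments and was under 1 FPKM in both. At any size 12 members were higher and 4 lower, the latter being Krtap3-2 (0 against 3 fragments), Krtap16-1 (2 against 3), Krtap4-6 and Krtap13 (0 against 1 each). Over the 51 members there were 181 against 9 fragments, a ratio of 20.6 (10.6 to 45.7). Keratinocyte markers also differed between these 2 dermal libraries: 4 of 8 basal markers were counted as higher in Koa and 0 lower, and their summed level was 1930 against 775 FPKM, with none at 0. Of 7 suprabasal markers 4 were higher, with sums of 610 against 203 FPKM. The part of these cells in the Krtap difference was not tested.

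The wild-type back was higher than the wild-type ear, in epidermis mainly through the chromosome 11 genes. In epidermis both members kept, through their dorsal level alone, were counted as higher in dorsal skin, Krtap3-2 by 1.5 and Krtap17-1 by 1.17 on the log2(FPKM + 1) scale. In this comparison 11.5% of all kept genes were higher and 5.47% lower. Krtap3-2 had 50 fragments in dorsal and 1 in ear epidermis, a ratio of 63.8 (10.9 to 2569). Krtap17-1 had 52 against 17, a ratio of 3.90 (2.22 to 7.20). Krtap7-1 had 3 against 4 fragments and Krtap8-1 had 8 against 11, 2 of the 4 members that were lower in dorsal skin at any size, where 16 were higher. The other 2 lower were Krtap14 (2 against 4 fragments) and Krtap12-1 (0 against 2). In dermis no member reached 1 FPKM in either library, and so none of 51 could be counted (11.7% of kept genes were higher and 7.06% lower). Counted at any size, 10 members were higher in dorsal dermis and 2 lower (Krtap16-1 and Krtap13), and the 51 summed to 60 against 9 fragments, a ratio of 7.50 (3.70 to 17.2). All 8 basal keratinocyte markers were higher in dorsal than in ear dermis, with sums of 6387 against 775 FPKM, and their part in this ratio was not tested.

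The 2 comparisons above share the WT ear libraries, so Koa ear and dorsal skin were also set against each other. In epidermis 3 of 5 members kept were counted as higher in the Koa ear and 1, Krtap3-2, was lower, where 3.51% of all kept genes were higher and 8.77% lower. The differences were 3.48 for Krtap7-1, 2.95 for Krtap8-1, 2.21 for Krtap11-1, -0.43 for Krtap17-1 and -1.36 for Krtap3-2. At any size 14 members were higher in the Koa ear and 13 lower. In dermis 3 of 3 members kept were higher in the Koa ear, by 1.83, 1.78 and 1.30 for Krtap7-1, Krtap8-1 and Krtap11-1, where 5.94% of all kept genes were higher and 9.63% lower. Krtap3-2 was not kept, at 0 FPKM in the Koa ear and 0.971 in dorsal dermis (0 against 26 fragments, a difference of -0.98). At any size 10 members were higher in Koa ear dermis and 8 lower.

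By cluster, the chromosome 16 members summed to 570 fragments in Koa ear epidermis, 29 in WT ear and 35 in WT dorsal epidermis. The ratio of Koa ear to WT ear was 22.4 (15.4 to 33.8), of Koa ear to dorsal 14.6 (10.3 to 21.1) and of dorsal to WT ear 1.54 (0.914 to 2.61). An interval that spans 1 leaves the last undecided at this depth. The chromosome 11 members summed to 47, 19 and 112 fragments in the same libraries. Their ratio was 2.82 (1.62 to 5.09) for Koa ear to WT ear, 0.375 (0.261 to 0.532) for Koa ear to dorsal and 7.52 (4.60 to 13) for dorsal to WT ear. The order of Koa ear and dorsal skin was thus opposite in the sums of the 2 clusters. On chromosome 11 it rested mainly on Krtap3-2, with 4 against 50 fragments. Krtap17-1 alone gave a ratio of Koa ear to dorsal of 0.653 (0.418 to 1.01), and the other 19 members, with 5 against 10 fragments, gave 0.447 (0.120 to 1.44), and both intervals span 1.

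In dermis the Koa ear was again the highest library for chromosome 16 and the back for chromosome 11. The chromosome 16 members had 173 fragments in Koa ear, 4 in WT ear and 16 in dorsal dermis, a ratio of Koa ear to WT ear of 44.3 (17.0 to 164) and of dorsal to WT ear of 4.50 (1.45 to 18.5). Krtap8-1 had 6 and Krtap11-1 had 7 of the 16 dorsal fragments, and both had 0 in the WT ear. The chromosome 11 members had 5, 5 and 42 fragments, a ratio of Koa ear to WT ear of 1.02 (0.235 to 4.45) and of Koa ear to dorsal of 0.108 (0.0335 to 0.273). The clusters on chromosomes 7 and 10 never held more than 6 and 2 fragments in a library, too few to compare.

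**Figure D2:**
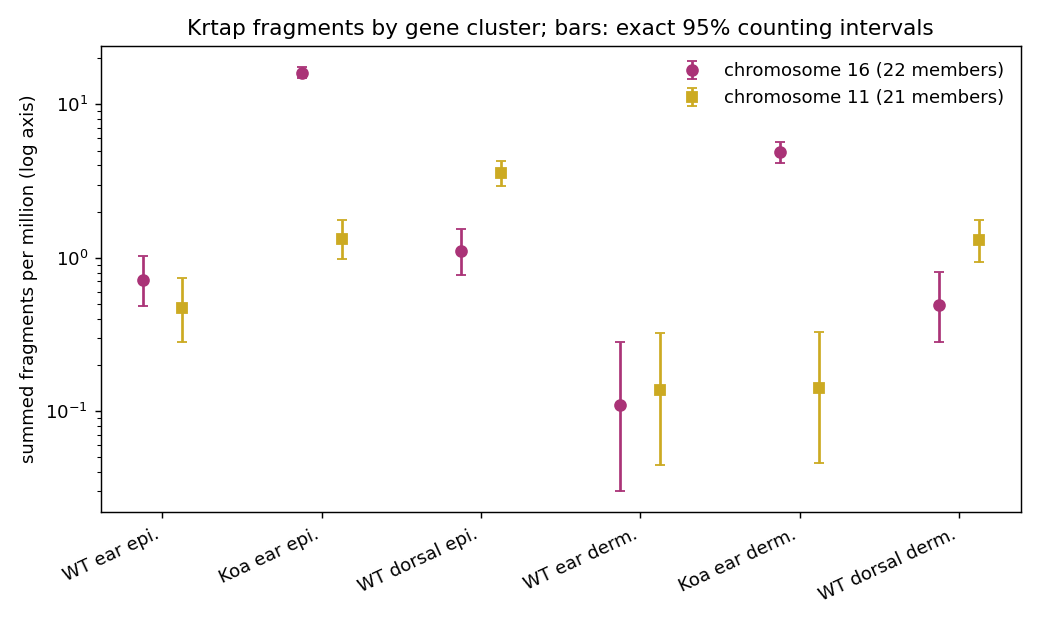
Fragments per mega fragments (M) of all members of the chromosome 16 and chromosome 11 clusters (log axis) in the 6 ear and dorsal libraries, with exact 95% Poisson intervals (counting error only, 1 library per group). Chromosome 16 members peak in Koa ear epidermis (570 fragments) and chromosome 11 members in WT dorsal epidermis (112 fragments).

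Composition class followed the same split less cleanly, because a class can hold genes of both clusters. High glycine-tyrosine members, all on chromosome 16, stood at 0.397 fragments per M (0.227 to 0.645) in WT ear epidermis, 10.2 (9.16 to 11.3) in Koa ear epidermis and 0.411 (0.219 to 0.704) in dorsal epidermis. High sulphur members, which include Krtap11-1 and Krtap3-2, stood at 0.422 (0.246 to 0.675), 6.25 (5.45 to 7.13) and 2.56 (2.04 to 3.19). Ultra-high sulphur members, led by Krtap17-1, stood at 0.496 (0.303 to 0.766), 1.10 (0.785 to 1.51) and 1.87 (1.42 to 2.41). The Koa ear was thus highest for the first 2 classes and the back for the last, where the intervals of Koa ear and back overlap. Krtap7-1, Krtap8-1 and Krtap11-1 made up 85.2% of the summed Krtap FPKM in Koa ear epidermis and 89.5% in Koa ear dermis, against 50.9% in WT ear epidermis and 20.2% in dorsal epidermis.

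Other genes of the growing hair differed between Koa and WT ear epidermis too. The hair shaft keratins, which form the filaments that these proteins bind, had 8 of 10 kept members higher in the Koa ear and 0 lower, with a median difference of 1.80. Krt35 stood at 28.2 against 1.91 FPKM, Krt85 at 16.9 against 0.798 and Krt31 at 8.69 against 0.917. Listed genes under 1 FPKM in the WT ear, such as Krt85 and Krt31, also passed the filter through the Koa ear alone. Krt32, a cuticle keratin, went the other way at 6.88 against 8.64 FPKM and was highest in dorsal epidermis, at 24.3. For the inner root sheath, the layer that moulds the shaft, 6 of 6 kept markers were higher (median 2.22), among them Krt25 (33.3 against 1.88 FPKM), Krt71 (31.9 against 0.930), Tchh (25.2 against 4.46) and Krt27 (15.2 against 4.71). Of the genes of shaft structure and crosslinking 5 of 7 were higher, including the calcium-binding S100a3 (17.3 against 5.36 FPKM) and the desmocollin Dsc2 (6.07 against 1.46), while the transglutaminases Tgm3 (39.9 against 35.1) and Tgm1 (3.64 against 2.48) were not counted.

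The regulators and the cycling genes did not pass the size rule, which understates the change of low genes. Of 13 kept regulators of the hair matrix and shaft 0 were counted as higher or lower in Koa ear epidermis, with a median of 0.36, and 0 of 8 basal keratinocyte markers were counted, with a median of 0.38. The regulators with the highest levels, Egr2, Gata3, Vdr and Ovol1, stood at 34.7, 72.4, 69.8 and 10.8 FPKM in Koa and 37.7, 56.1, 53.6 and 10.3 FPKM in WT ear epidermis. Hoxc13 and Foxn1, both required for hair keratin expression and picked out here after their values were seen, stood at 10.3 against 6.52 and at 3.66 against 1.72 FPKM. Lef1, picked out in the same way, stood at 1.99 against 0.824 FPKM, and in ear dermis at 5.95 against 2.62 FPKM. Of the kept regulators, Egr2, Foxq1 and Prdm1 were lower in Koa ear epidermis at any size and the others higher. In dorsal epidermis Hoxc13 stood at 11.2 FPKM, and its part in the Krtap differences was not tested. Of 6 kept genes of cell division, 0 were counted, with a median of -0.36 (Top2a 51.5 against 56.7 and Mki67 41.8 against 52.2 FPKM).

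In ear dermis the lists gave much the same picture, with 4 of 5 hair shaft keratins (median 1.76), 6 of 6 inner root sheath markers (2.45), 2 of 5 genes of shaft structure (0.99) and 0 of 12 regulators (0.45) higher in Koa. Of all kept genes 1.71% were higher in Koa. All listed hair shaft keratins and inner root sheath markers were under 1 FPKM in WT ear dermis. Those kept passed through the Koa ear alone and could not have been lower, so their counts are a description. Between dorsal and ear epidermis 3 of 5 hair shaft keratins, 4 of 6 inner root sheath markers and 4 of 14 regulators were higher in dorsal skin, beside 11.5% of all kept genes. Listed genes under 1 FPKM in WT ear epidermis, such as Krt85 and Krt71, were kept through the dorsal library alone. All these comparisons use the same WT ear libraries.

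**Figure D3:**
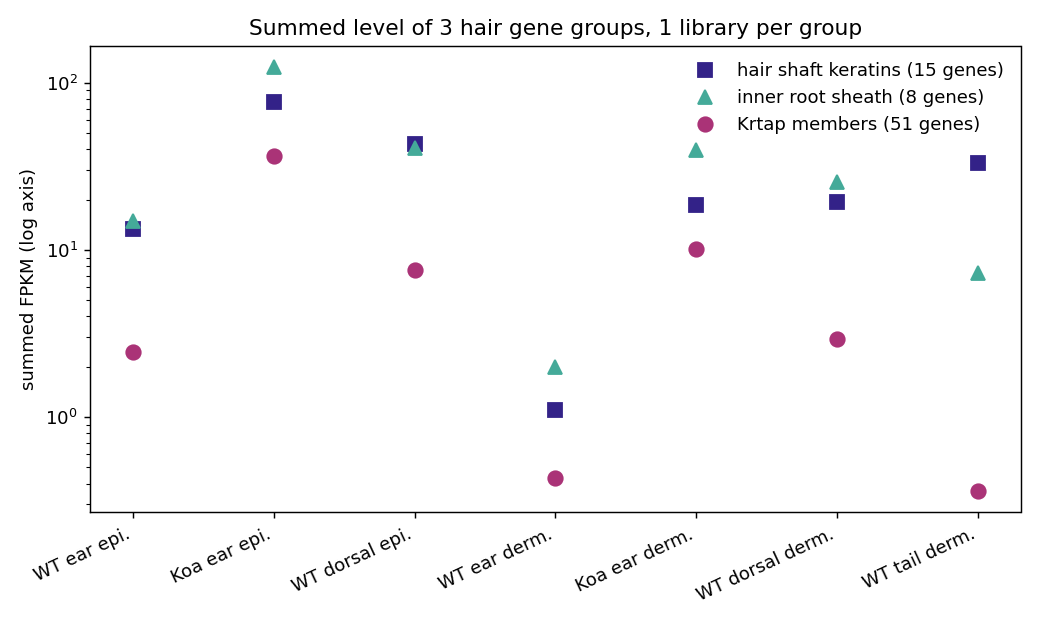
Summed FPKM (log axis) of the Krtap genes, the hair shaft keratins and the inner root sheath markers in each of the 7 libraries, 1 library per group and no error bars. Krtap genes sum to 36.5 FPKM in Koa ear epidermis against 77.0 for hair shaft keratins, and to 0.36 against 33.2 FPKM in the tail library. Most of that tail keratin sum is Krt36 (14.9 FPKM) and Krt84 (17.0 FPKM).

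The summed level of Krtap RNA relative to that of all listed hair shaft keratins differed between libraries. The Krtap sum was 47.5% of the hair shaft keratin sum in Koa ear epidermis and 54.6% in Koa ear dermis, against 18.4% in WT ear epidermis, 17.7% in dorsal epidermis and 15.2% in dorsal dermis. In WT ear dermis it was 39.5%, on sums of 0.433 and 1.10 FPKM. With all listed keratins counted, both Koa libraries had a higher share than any other library, the WT ear dermis with its 9 Krtap fragments lying nearest. This order depends on Krt32, which was not higher in Koa ear epidermis. Krt32 gave 8.64 of 13.3 FPKM of the keratin sum in WT ear epidermis and 24.3 of 42.8 in dorsal epidermis. In Koa ear epidermis it gave 6.88 of 77.0 FPKM. Shares without Krt32 were not computed, so a rise of Krtap RNA beyond the other shaft keratins is not shown.

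The 10 genes outside the family whose log2(FPKM + 1) over the 6 ear and dorsal libraries was most like the mean of the 5 expressed members were Prps2 and Krt31 (r of 0.99 each), Sfxn2, Ttc38, Tchh, Ammecr1, Tulp4, Gga1, Trp53bp1 and Itgb3bp (r of 0.95), out of 11391. Krt31 and Tchh are on the hair lists. Among the listed genes Krt33a, Padi3, which citrullinates hair proteins, and Dsg4, a desmosomal cadherin of the shaft, had an r of 0.97, and Hoxc13 and Foxn1 had 0.53 and 0.65. With 6 points, of which 2 are Koa ear libraries, such values are a description only.

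The dermal libraries also held Krtap RNA. In the Koa ear 4 of 4 members kept were lower in dermis than in epidermis, by 1.84 for Krtap7-1, 1.33 for Krtap8-1, 1.27 for Krtap11-1 and 1.28 for Krtap17-1 on the log2(FPKM + 1) scale, where 12.8% of all kept genes were lower and 20.4% higher. The members that were higher in dermis at any size, 8 of them, had at most 2 fragments there (Krtap16-1, Krtap14, Krtap5-2, Krtap5-4, Krtap24-1, Krtap26-1 and Krtap1-3, with Krtap4-13 at under 1 fragment). In dorsal skin 1 of 2 members kept, Krtap17-1, was lower in dermis, where 8.29% of all kept genes were lower, and 2 of the 51 were higher at any size (Krtap16-1 and Krtap4-6). Krtap17-1 and Krtap3-2 in dorsal skin, and Krtap17-1 in the Koa ear, were kept through their epidermal level alone. They could not have been counted as higher in dermis. In the WT ear 0 members reached 1 FPKM in either layer, where 14.4% of kept genes were lower in dermis.

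As a share of the epidermal level, the dermal level in the Koa ear was 22.2% (15.5 to 31.2) for Krtap7-1, 34.7% (25 to 47.4) for Krtap8-1, 32.7% (24.0 to 43.8) for Krtap11-1 and 10.5% (2.72 to 29.1) for Krtap17-1. Beside these, the 8 basal keratinocyte markers had a median share of 10.7%, and single markers lay between 9.81% and 13.9%. The 3 chromosome 16 genes were above this range, as were the inner root sheath markers (median 30.2%, range 25.9% to 77.0%, 6 genes). Hair shaft keratins had a median of 24.8% with a wide range (1.88% to 44.7%, 10 genes).

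In dorsal skin the shares were 22.6% (11 to 42.9) for Krtap17-1 and 50.9% (30.4 to 83.3) for Krtap3-2, with 37.7% (26.5% to 47.6%) as the median and range of the basal markers. The intervals of both genes overlap that range. In the WT ear the 3 chromosome 16 genes were at 0 in dermis, and the basal markers had a median share of 7.16%. The upper limits of these 0 shares were 168% for Krtap7-1, 44.2% for Krtap8-1 and 56.2% for Krtap11-1. They rest on 4, 11 and 9 epidermal fragments, too few to set the WT ear apart from the Koa ear in this share. Which cells in the dermal sorts carried the Krtap RNA was not tested.

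**Figure D4:**
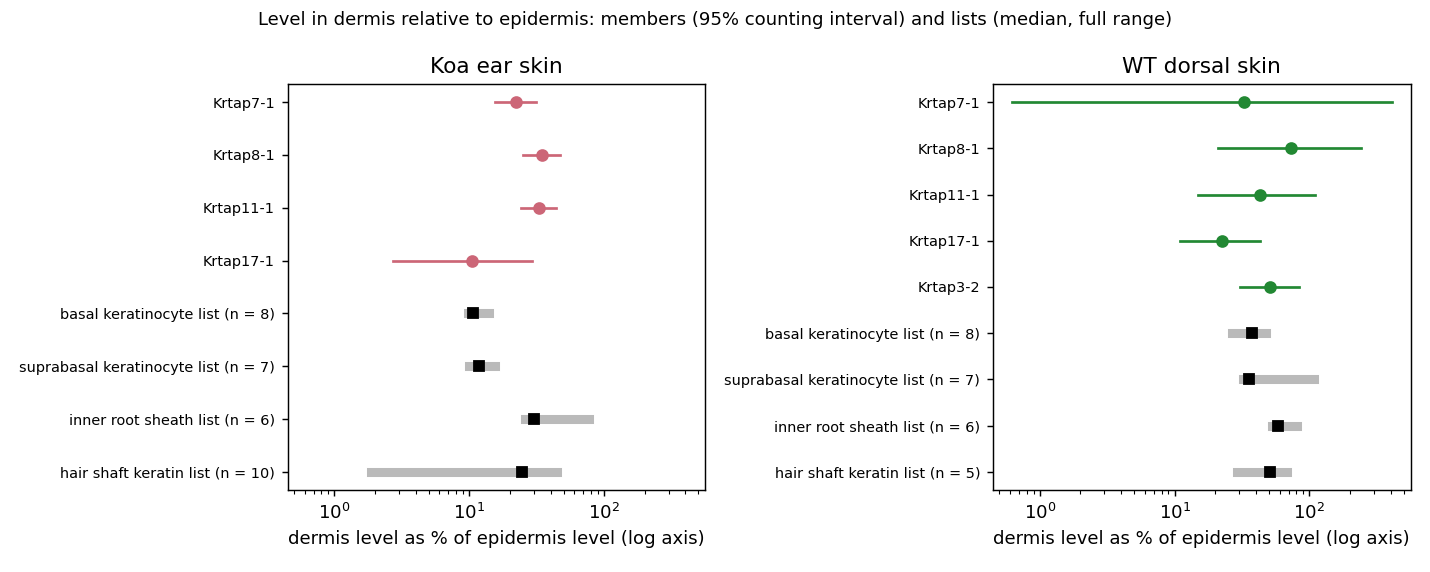
Dermal FPKM as a percentage of epidermal FPKM (log axis) in the Koa ear and in dorsal skin, with single members (exact 95% intervals of counting error) beside the medians of marker lists (bars give the range of their genes). In the Koa ear Krtap7-1, Krtap8-1 and Krtap11-1 lie at 22.2% to 34.7%, above the basal keratinocyte markers at 10.7%.

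In the tail library 5 members were above 0, the highest being Krtap17-1 at 0.09 FPKM, followed by Krtap14 at 0.08 and Krtap11-1 at 0.06. No member could be counted against WT ear dermis (6.34% of kept genes higher, 27% lower) or WT dorsal dermis (7.07% higher, 29% lower). The hair shaft keratins summed to 33.2 FPKM there, so the Krtap sum of 0.36 FPKM was 1.08% of theirs, the lowest share of the 7 libraries. Krt36 at 14.9 and Krt84 at 17.0 FPKM made up most of that keratin sum, and both were low in the other libraries. The share therefore does not set Krtap RNA against the same keratins as elsewhere. Zeros of this column are given as listed, since abundant genes are at 0 in it too.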

How the data were processed

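RNA-seq of 7 libraries, 1 per group, was used. The authors deposited 1 table of FPKM values per gene symbol. The tools named per the submitters' processing notes are TopHat2 (version 2.0.13) and Cufflinks (version 2.2.1), and the builds are GRCm38 and mm9. The role of each build and the annotation are not given in the sources used here. A misspelled name in 2 columns was read through the title of its sample. Tail values are rounded to 2 decimals.

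From these values, differences of log2(FPKM + 1) were computed (Python 3.11.15, pandas 2.3.3, numpy 2.4.6, scipy 1.17.1), for genes with at least 1 FPKM in 1 of 2 libraries, and a difference of at least 1 was counted. With 1 library per group no test was possible and no p-value is given. Depths of 31.6 M to 40.3 M fragments (M, mega) were recovered from the steps of low values (under 0.5 FPKM). Against WT ear dermis, 36.1% to 38.9% of the compared values lay on whole steps within 1%, and 209 of 403 genes gave an effective length of transcript length minus 203.277 nt. With these, 30 members came out as whole fragments within 0.15, and 2 (Krtap5-1 and Krtap5-2) as estimates rounded to whole fragments. Before this, the values of each member were scaled to make its lowest count whole, within a relative tolerance of 0.06. A member seen in only 1 library is whole by this scaling, so for it the 0.15 limit is no check. Intervals are exact, at 95%, and a count of 0 was set at 3 fragments. Of the 51 symbols, 43 matched a current RefSeq symbol and 7 an older one, and positions and promoters are RefSeq's for GRCm38. Families were classed by name, since protein composition was not computed. The text names the 12 members with the highest level, those past the size rule and those against the majority, and up to 4 genes of each list with the highest levels. Lef1, Hoxc13, Foxn1, Krt36, Krt84, Krt86, Krt33a, Padi3 and Dsg4 were named after their values were seen. Foxq1 and Prdm1 were named, also after their values were seen, for being lower in Koa ear epidermis. Pdgfra, Thy1, Dcn and Col6a1 were named as fibroblast markers. The members and lists were chosen with earlier results of these data known.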

Additional observations from a re-analysis of the deposited data

How the results depend on the processing

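The count of 3 members higher in Koa than in WT ear epidermis stayed at 3 with a pseudocount of 5, a filter at 5 FPKM, no filter and 2 other scalings of the libraries, and was 4 with a pseudocount of 0.1, where Krtap17-1 reached 1.24. Among the 5 expressed members 1 difference changed sign: Krtap8-1 between dorsal dermis and epidermis went from -0.16 to 0.03 with each library scaled to the same total FPKM. Of 132 counts under the alternatives 15 moved by over 1.5 times. A pseudocount of 5 left 0 in place of 3 higher for Koa against WT ear dermis and for Koa ear against dorsal dermis, 0 in place of 2 higher for dorsal against ear epidermis, 0 in place of 1 lower for Koa ear against dorsal epidermis and for dorsal dermis against epidermis, and 1 in place of 4 lower for Koa ear dermis against epidermis. The filter at 5 FPKM gave 0 for the first 5 of these, since the members lie under it. With each library scaled to the same total FPKM, dorsal against ear epidermis had 1 higher and dorsal dermis against epidermis 0 lower. This scaling moved the median of all genes between dorsal and ear epidermis from -0.02 to -0.46 on the log2 scale. Scaling by median ratios gave 1 lower for Koa ear against dorsal dermis and 1 lower for tail against dorsal dermis, in place of 0. No paired analysis was possible because each group has 1 library. Depth limits all members under 1 FPKM, none of which had over 17 fragments.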

Other observations

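Among the listed hair shaft keratins, Krt36 and Krt84 were the highest in the tail library, followed by Krt35 at 0.78 FPKM. Krt36 stood at 14.9 FPKM and Krt84 at 17.0 FPKM there, against at most 2.84 and 1.51 FPKM in the other 6 libraries (both in Koa ear epidermis), and Hoxc13 stood at 14.4 FPKM, its highest level. The highest Krtap gene in that library was at 0.09 FPKM. Krt31, Krt33a and Krt86 are listed at 0 there. Krt36 and Krt84 are known from nail and tongue papillae as well as from hair, and which cells of the tail carried them was not tested. These genes were picked after their values were seen, and the tail column is not made like the remaining ones.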
